A study of Arabidopsis thaliana with 18 samples.

Results

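What the loss of NAC103 changed in a root whose plastid translation was already impaired was read from 6 RNA sequencing libraries, the 3 of nac103-11 rab8d-2 against the 3 of rab8d-2, out of 18 libraries in the series. The 6 were chosen by genotype label alone, and each gene of the count table was tested between them. The other 12 libraries were WT (Col-0), nac103-11, gun1-101 and gun1-101 rab8d-2, 3 each, and they entered the same model. All were Arabidopsis thaliana root tips from seedlings on half-strength Murashige and Skoog medium with 1% sucrose and 16 hours of light, after about 3 days of cold in the dark. Seedling age is uncertain: 4 days by the titles, 3 days by the design text. Both groups compared carry the rab8d-2 mutation, which affects the plastid elongation factor EF-Tu, and the double mutant carries nac103-11 in addition. Each mutation is represented by 1 allele. The labels call the libraries biological replicates without saying that they came from separate cultures, so p-values measure the spread between these libraries.

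EF-Tu brings aminoacyl-tRNA to the ribosome, and plants need a plastid form of it to make the proteins that the plastid genome encodes. When plastids fail, signals to the nucleus change nuclear transcription, and GUN1, a plastid pentatricopeptide repeat protein, is a known part of that signalling. NAC103 is a transcription factor of the NAC family that acts downstream of bZIP60 in the unfolded protein response of the endoplasmic reticulum and has also been placed downstream of SOG1, the transcription factor of the plant DNA damage response. In bulk root tips a lower level can come from fewer cells of a type or from less RNA per cell, and the pair cannot be told apart.

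Total counts were 22625981 to 23090995 per library. Levels below are CPM, counts scaled to the library total and corrected for library composition by TMM. Calls are at 0.05 on the p of edgeR's quasi-likelihood test, adjusted over 21004 genes by Benjamini-Hochberg. Library 3 of nac103-11 rab8d-2 stood apart: its log2 levels correlated at 0.901 and 0.923 with those of the other libraries of its genotype, which correlated at 0.976 with each other. The libraries also differed in the state of the circadian clock. The mean log2 level of 5 morning genes minus that of 5 evening genes was 1.27 in rab8d-2 library 3, against -4.81 and -4.56 in rab8d-2 libraries 1 and 2 and -5.72 to -4.25 in nac103-11 rab8d-2. WT library 3 was likewise at 1.79, with the other WT libraries at -5.08 and -5.3. What these differences contribute to the results was not tested. Values without library 3 of nac103-11 rab8d-2 are given beside genes and lists whose call or fold changed with it. That check is not the strictest. Of 83 called genes that were named, 31 were weaker without that library. There were 54 weaker without rab8d-2 library 1 and 59 without rab8d-2 library 3. A gene still called without library 3 of the double mutant can thus lose its call without a rab8d-2 library.

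The mutated genes were examined first. NAC103 (AT5G64060) had 17.7, 29.7 and 11.4 CPM in rab8d-2 and 8.35, 3.25 and 7.12 CPM in nac103-11 rab8d-2. All libraries of the double mutant lay below all of rab8d-2, but the difference missed the threshold (log2 -1.65, SE 0.45, 95% interval -2.62 to -0.69, edgeR adjusted p = 0.061). Transcripts of the gene were therefore still counted in the double mutant, at a level above the 0.0841 to 0.185 CPM of nac103-11 and the 0.538 to 1.99 CPM of WT. RABE1b (AT4G20360), the symbol under which RAB8D is listed, had 18.9, 11.5 and 10.7 CPM in rab8d-2 and 6.72, 7.73 and 15.7 CPM in nac103-11 rab8d-2. The groups overlapped, and both lay far below the 109 to 176 CPM of WT. GUN1 (AT2G31400) was at 112, 91.6 and 120 CPM in rab8d-2 and at 72.3, 77.8 and 74.3 CPM in the double mutant (log2 -0.53, edgeR adjusted p = 0.0918).

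**Figure D1:**
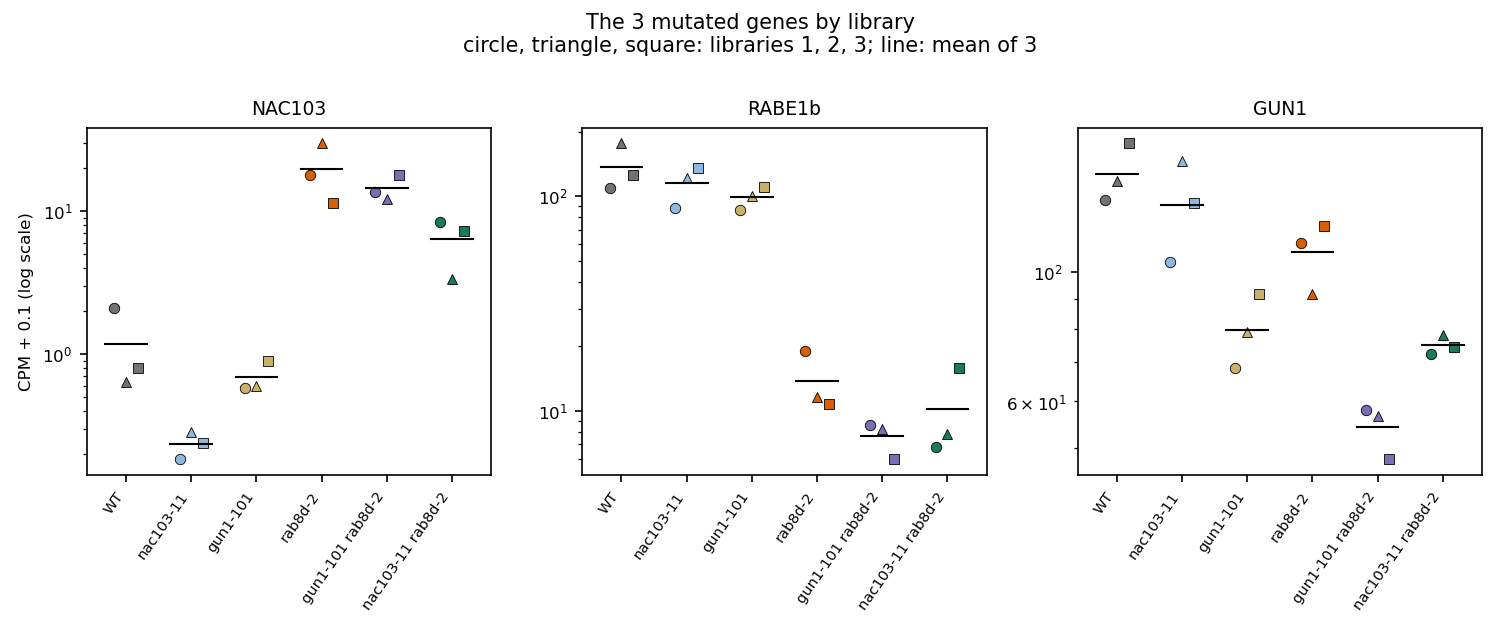
Level of the 3 mutated genes in each of the 18 libraries (y axis, CPM + 0.1 on a log scale; x axis, genotype; symbols mark libraries 1 to 3 and lines the mean). NAC103 lay between 3.25 and 8.35 CPM in nac103-11 rab8d-2, below the 11.4 to 29.7 CPM of rab8d-2 and above every WT library.

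Between nac103-11 rab8d-2 and rab8d-2, edgeR called 534 of 21004 genes (2.54%), 270 higher (1.29%) and 264 lower (1.26%) in the double mutant. Of these, 373 differed at least 2-fold, 216 higher and 157 lower. The median log2 fold change of all tested genes was -0.01. The 3 and 3 libraries did not overlap for 523 of the 534, where 17.7% of all tested genes did not overlap. Without library 3 of nac103-11 rab8d-2 the test called 201 genes (0.946% of those tested), 155 of them among the 534 and in the same direction, 74 higher and 81 lower. For 352 of the 534, library 3 held the value of its genotype most extreme in the direction of the call. These were 233 of the 270 higher genes and 119 of the 264 lower genes. The count also hung on rab8d-2 libraries: it was 75 without library 1, 839 without library 2 and 45 without library 3. Without nac103-11 rab8d-2 library 1 it was 912. In a fit of the 6 libraries alone the count was 2. There were 36 genes, 17 higher and 19 lower, that were called in the same direction without each of the 6 libraries in turn.

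**Figure D2:**
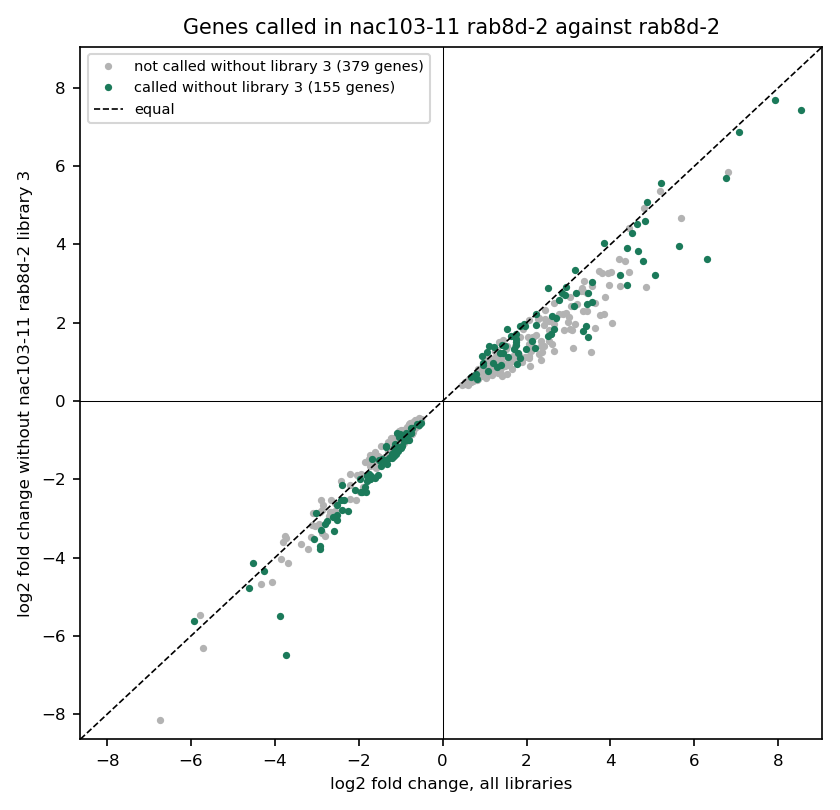
Each point is 1 of the 534 genes called in nac103-11 rab8d-2 against rab8d-2 (x axis, log2 fold change from all libraries; y axis, log2 fold change without library 3 of the double mutant). All 534 kept their sign; the median of the 270 higher genes moved from 1.73 to 1.26 and that of the 264 lower genes from -1.17 to -1.07.

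Genes of flavonoid synthesis were lower in the double mutant. Flavonoids are made from coumaroyl-CoA by chalcone synthase and chalcone isomerase, after which flavanone 3-hydroxylase, flavonoid 3'-hydroxylase and flavonol synthase lead to the flavonols, which are the main flavonoids of the Arabidopsis root. Of 9 tested members of the flavonoid list, 5 fell, none rose and 4 did not pass, where 1.26% of all genes were called lower. The list had a median log2 fold change of -2.41 and 5 members called lower. The same number fell without library 3 of the double mutant, with a median of -2.78. The 5 that fell encode these successive enzymes: TT4, TT5, F3H, TT7 and FLS1. Because they moved together, the 250 bases before the annotated start of 4 of them are printed here from RefSeq TAIR10.1, read 5′ to 3′ on the gene's strand. Capitals mark CACGTG, the G-box bound by bZIP and bHLH factors, and CTTNNNNNNNAAG, the palindrome bound by SOG1. Both were searched on both strands, as was TCATCG, the UPRE-III element bound by bZIP60, and the 3 motifs did not overlap here.
TT4: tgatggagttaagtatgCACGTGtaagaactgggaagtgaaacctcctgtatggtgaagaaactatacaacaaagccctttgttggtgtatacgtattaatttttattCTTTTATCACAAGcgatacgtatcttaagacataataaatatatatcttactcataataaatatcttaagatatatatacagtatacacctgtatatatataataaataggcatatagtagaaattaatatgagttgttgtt
F3H: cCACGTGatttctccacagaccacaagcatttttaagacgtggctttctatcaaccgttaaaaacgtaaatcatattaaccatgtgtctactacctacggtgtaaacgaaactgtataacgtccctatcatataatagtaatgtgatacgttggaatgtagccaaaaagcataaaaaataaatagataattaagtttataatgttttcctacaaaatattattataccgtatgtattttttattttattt
TT5: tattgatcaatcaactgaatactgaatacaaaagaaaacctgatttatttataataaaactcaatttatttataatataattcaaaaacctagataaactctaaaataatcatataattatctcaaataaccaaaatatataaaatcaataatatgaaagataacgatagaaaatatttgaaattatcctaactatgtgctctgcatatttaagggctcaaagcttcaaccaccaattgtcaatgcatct
FLS1: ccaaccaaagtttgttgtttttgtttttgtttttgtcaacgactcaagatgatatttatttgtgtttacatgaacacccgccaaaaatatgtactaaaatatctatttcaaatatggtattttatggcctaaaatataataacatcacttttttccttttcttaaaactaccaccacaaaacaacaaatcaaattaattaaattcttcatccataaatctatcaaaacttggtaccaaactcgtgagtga
These windows are chr5:4488226-4488475 for TT4, chr3:19024942-19025191 for F3H, chr3:20431598-20431847 (minus strand) for TT5 and chr5:2803583-2803832 for FLS1. TT4 held the G-box at -233 and the SOG1 palindrome at -142, counted from the annotated start, and F3H held the G-box at -249. No motif was found in the windows of TT5, FLS1 or TT7. Over all tested genes the G-box occurred in 7.38% of such windows, the SOG1 palindrome in 9.22% and TCATCG in 6.46%. Among called genes the G-box was in 5.19% of the higher and 7.2% of the lower, the SOG1 palindrome in 9.26% and 9.47%, and TCATCG in 4.44% and 5.68%. A match is a description of the letters and not a binding site.

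TT4 (AT5G13930, chromosome 5, 4488476 to 4490264), the chalcone synthase that makes the first committed step, had 889, 508 and 527 CPM in rab8d-2 and 85.5, 68.4 and 182 CPM in nac103-11 rab8d-2. The groups did not overlap, and the level was 5.73-fold lower (log2 -2.52, SE 0.39, edgeR adjusted p = 0.00667). TT5 (AT3G55120), chalcone isomerase, fell from 50, 20 and 23.9 CPM in rab8d-2 to 3.2, 4.16 and 6.5 CPM (log2 -2.77, SE 0.37, edgeR adjusted p = 0.00346). F3H (AT3G51240), flavanone 3-hydroxylase, had 144, 114 and 120 CPM in rab8d-2 and 18.1, 18.1 and 35.2 CPM in the double mutant (log2 -2.41, SE 0.27, edgeR adjusted p = 0.000841). FLS1 (AT5G08640), flavonol synthase, had 150, 70.9 and 55 CPM in rab8d-2 and 10.5, 7.93 and 19 CPM in the double mutant (log2 -2.89, edgeR adjusted p = 0.00998). TT7 (AT5G07990), flavonoid 3'-hydroxylase, had 21.8, 8.12 and 7.29 CPM against 1.58, 0.872 and 3.81 CPM (log2 -2.60, edgeR adjusted p = 0.0305, and log2 -3.32 without library 3). In each of the 5 genes library 3 was the highest of the double mutant and still below every rab8d-2 library. TT4, TT5, F3H and FLS1 were called without each of the 6 libraries, and TT7 in 2 of those 6 fits.

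Genes that supply or assist the pathway were lower as well; 4CL3 and KAT5 were named by rule and CHIL after its values were seen. 4CL3 (AT1G65060), a 4-coumarate:CoA ligase that provides the pathway's substrate, had 26.4, 14.1 and 14.9 CPM in rab8d-2 and 2.69, 2.54 and 6.5 CPM in the double mutant (log2 -2.26, edgeR adjusted p = 0.00856). KAT5 (AT5G48880), a 3-ketoacyl-CoA thiolase, had 30.7, 16.4 and 12.5 CPM against 3.88, 2.89 and 4.87 CPM (log2 -2.36, edgeR adjusted p = 0.00346). CHIL (AT5G05270), a chalcone isomerase-like protein that assists chalcone synthase, had 123, 92.6 and 69.5 CPM against 18.7, 22.5 and 38.5 CPM (log2 -1.84, edgeR adjusted p = 0.0176). The members of the list that did not pass were the glycosyltransferases UGT78D1 (log2 -1.03) and UGT78D2 (log2 -1.08) and the transcription factors MYB11 (log2 -1.09) and MYB12 (log2 0.35). MYB12, the flavonol regulator of the root, had 16.1, 14.7 and 10.6 CPM in rab8d-2 and 12.2, 13.4 and 27.3 CPM in the double mutant, so the groups overlapped (edgeR adjusted p = 0.72).

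Levels of these genes were low in both double mutants, while nac103-11 and rab8d-2 were not called different from WT for any member of the list. F3H averaged 143 ± 13.6 CPM in WT, 128 ± 16 in nac103-11, 126 ± 15.5 in rab8d-2, 23.8 ± 9.86 in nac103-11 rab8d-2 and 25.2 ± 6.47 in gun1-101 rab8d-2 (SD, n = 3 each). In gun1-101 it was 88.8 ± 16.1 CPM. Other members were further below WT in gun1-101 alone. TT4 averaged 359 ± 87.7 CPM in gun1-101 and 912 ± 298 CPM in WT, and FLS1 averaged 29 ± 7.65 and 104 ± 48.9 CPM. The difference between gun1-101 and WT was not tested. The direct test between the double mutants gave log2 -0.08 for F3H with a 95% interval of -0.63 to 0.46, and none of the 9 members was called there. For TT4 that difference was log2 0.51 (-0.27 to 1.28) and for FLS1 0.02 (-0.91 to 0.96), so differences within those intervals cannot be told from none. The interaction, which is the nac103-11 effect in rab8d-2 minus the nac103-11 effect in WT, missed the threshold for every member. It was log2 -2.24 (SE 0.36) for F3H with an edgeR adjusted p of 0.056, log2 -2.99 for FLS1 (edgeR adjusted p = 0.128) and log2 -1.70 for TT4 (edgeR adjusted p = 0.188). A dependence of the fall on rab8d-2 was therefore not established at this threshold. In nac103-11 against WT the difference was log2 -0.17 (95% interval -0.70 to 0.37) in F3H and -0.81 (-1.60 to -0.03, edgeR adjusted p = 0.751) in TT4.

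**Figure D3:**
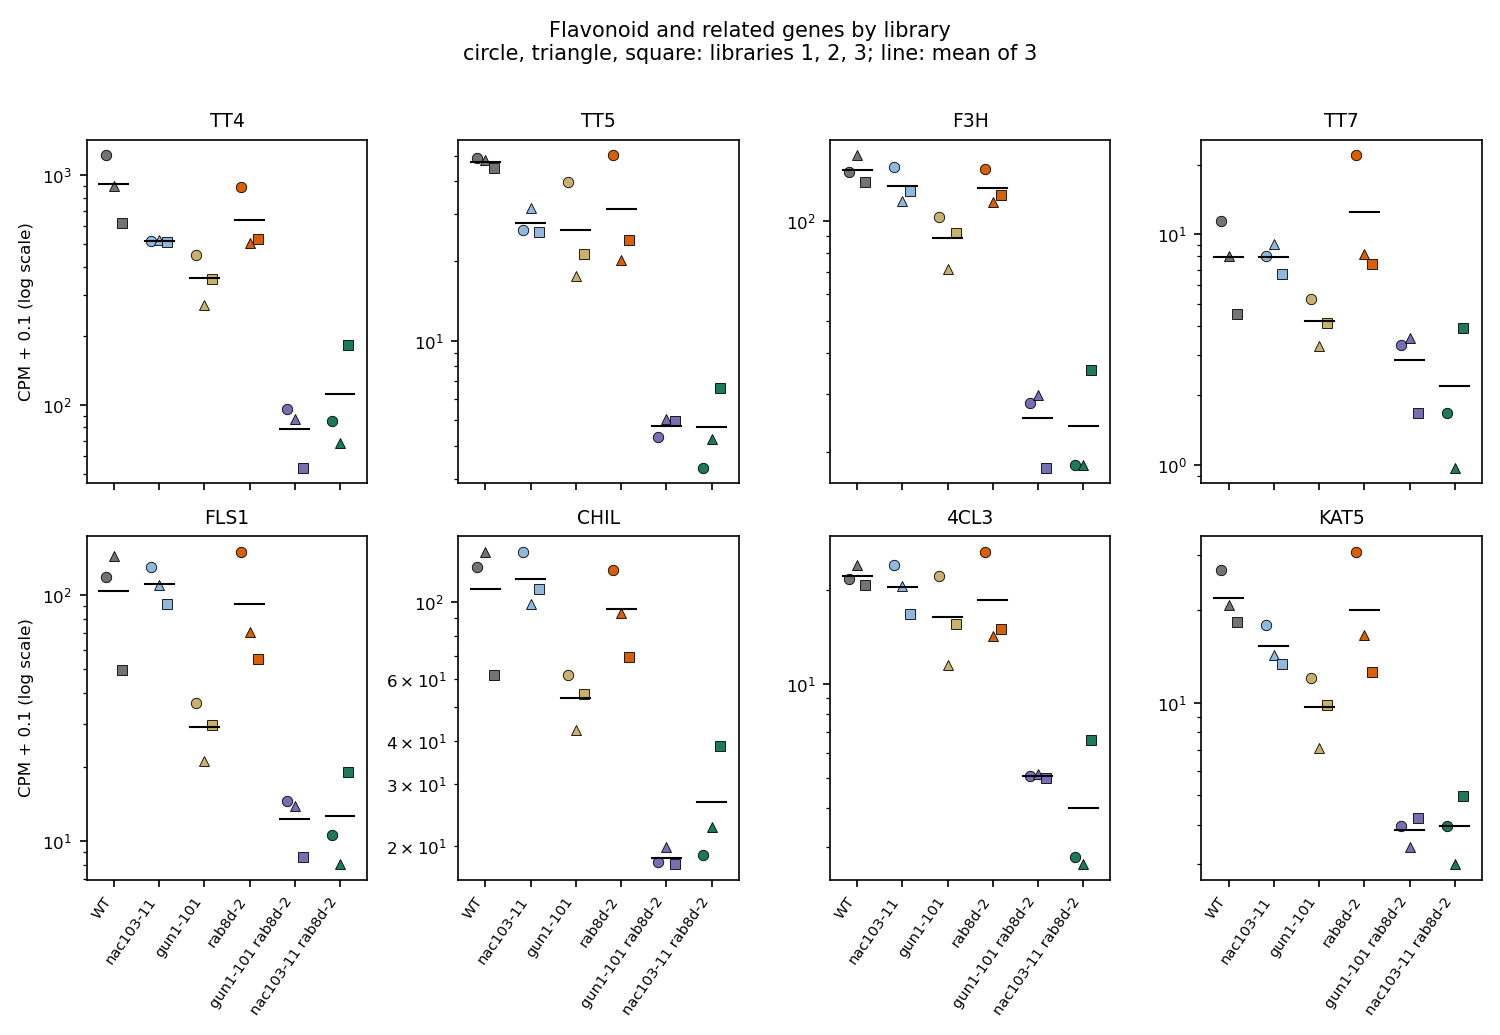
Level of 8 genes of flavonoid synthesis and its supply in each of the 18 libraries (y axis, CPM + 0.1 on a log scale; x axis, genotype; symbols mark libraries 1 to 3 and lines the mean). All 8 were lower in every nac103-11 rab8d-2 library than in every rab8d-2 library; F3H averaged 23.8 CPM and 126 CPM.

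The 12 highest fold changes were of genes near the detection limit or low in rab8d-2, and 4 of the 12 are described first. DIR5 (AT1G64160, chromosome 1, 23813943 to 23814839), a dirigent-like protein of a family that steers phenoxy radical coupling, had 0.249, 0.161 and 0 CPM in rab8d-2 and 7.67, 40.4 and 111 CPM in nac103-11 rab8d-2. The groups were far apart, the double mutant libraries differed widely among themselves, and the log2 fold change of 8.55 (SE 1.07, edgeR adjusted p = 0.00346) rests on few rab8d-2 counts. PRX52 (AT5G05340), a class III peroxidase linked to lignin formation, rose from 1.7, 0.683 and 0.648 CPM to 11.4, 17.2 and 47.8 CPM (log2 4.65, SE 0.63, edgeR adjusted p = 0.00346). GAD4 (AT2G02010), a glutamate decarboxylase that makes GABA, rose from 0.539, 1 and 0.202 CPM to 6.61, 11.3 and 70.2 CPM (edgeR adjusted p = 0.0101). ABR1 (AT5G64750), an AP2/ERF factor known as a repressor of abscisic acid responses, had 1.24, 4.22 and 0.972 CPM in rab8d-2 and 11.1, 28.7 and 178 CPM in the double mutant (edgeR adjusted p = 0.0185). For GAD4, ABR1 and PRX52 library 3 was several times the other libraries, and each was still called without it, with edgeR adjusted p-values of 0.0147, 0.0344 and 0.00478. The folds were smaller without it: log2 3.95 against 5.64 for GAD4, 3.23 against 5.07 for ABR1, 3.84 against 4.65 for PRX52, and 7.44 against 8.55 for DIR5. GAD4 and ABR1 were not called without rab8d-2 library 1 (edgeR adjusted p = 0.052 and 0.0742). Nor were they called without rab8d-2 library 3 (edgeR adjusted p = 0.0654 and 0.0829).

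Several other genes of the highest 12 lost their call without library 3. MSRB8, a methionine sulfoxide reductase, had 2.03, 7.8 and 4.29 CPM in rab8d-2 and 23.7, 19.4 and 149 CPM in the double mutant, and without library 3 its log2 fold change went from 3.76 to 2.2 (edgeR adjusted p = 0.111). LHT7, an amino acid transporter, had 0.705, 0.764 and 0.364 CPM against 4.23, 3.41 and 19.7 CPM and its log2 fold change went from 3.88 to 2.65 without it (edgeR adjusted p = 0.0798). ATHSP22.0, a small heat shock protein, had 0.0415, 0.241 and 0.162 CPM against 0.791, 11.7 and 4.31 CPM (edgeR adjusted p = 0.043, and 0.0707 without library 3). Its library 2 was the highest, and its log2 fold change was 5.18 with library 3 and 5.37 without. The allene oxide cyclases of jasmonate synthesis were highest in library 3. AOC1 had 1.82, 1.21 and 0.972 CPM against 4.75, 3.49 and 36.4 CPM, and AOC2 had 3.19, 3.01 and 1.05 CPM against 7.24, 15.1 and 82 CPM. Without library 3 the log2 fold change of AOC1 went from 3.47 to 1.64, still called (edgeR adjusted p = 0.0385), and that of AOC2 from 3.84 to 2.23, not called (0.132). AOC1 was not called without rab8d-2 library 1 or rab8d-2 library 3 (edgeR adjusted p = 0.0742 and 0.098).

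Counted by symbol, glutathione S-transferases of the tau class, which conjugate glutathione to electrophiles, were the family with the most higher genes. This family was singled out after its values were seen: 9 of 25 tested genes named GSTU rose and none fell, with a median log2 fold change of 1.17, and 4 of the 9 were called without library 3. Over all genes 1.29% were called higher. GSTU11 (AT1G69930) rose from 1.95, 3.05 and 1.66 CPM to 13.3, 16.5 and 43.7 CPM (log2 3.46, SE 0.49, edgeR adjusted p = 0.00453, and log2 2.76 without library 3). GSTU1 (AT2G29490), the more abundant, rose from 46.6, 31.4 and 48.8 CPM to 84.4, 112 and 130 CPM (log2 1.37, SE 0.19, edgeR adjusted p = 0.00391). Both were called without each of the 6 libraries. On the oxidative stress and detoxification list, 6 of 27 tested members rose (GSTU1, GSTU2, GSTU3, GSTU4, GSTU7 and GSTU24), none fell, and the median log2 fold change was 1.04. Without library 3, GSTU1 and GSTU2 were the 2 members called and the median was 0.56. All 6 were transferases; the catalases, superoxide dismutases and ascorbate peroxidases of the list did not pass, with CAT1 at log2 0.65, CSD1 at 0.42 and APX1 at 0.63.

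Several regulators were higher in the double mutant, and others were lower, such as BZIP17, GL2, SCR and JKD, given below. All 5 risers named here were picked after their values were seen. Of 59 tested genes named WRKY 4 rose and none fell, and of 86 named MYB 2 rose and 1 fell. WRKY29 (AT4G23550), a defence transcription factor, had 8.38, 8.68 and 4.58 CPM in rab8d-2 and 35.2, 50.7 and 62.7 CPM in nac103-11 rab8d-2 (log2 2.78, SE 0.31, edgeR adjusted p = 0.000841). ABO3 (AT1G66600), another WRKY factor, had 0.166, 0.161 and 0.121 CPM against 1.03, 3.49 and 5.31 CPM (edgeR adjusted p = 0.00157). The NAC factors NAC047 and NAC042 rose to 44, 63.5 and 61.6 CPM and to 15.7, 9.95 and 14.3 CPM, from 15.8, 22.9 and 11.3 CPM and from 3.53, 3.98 and 2.79 CPM (edgeR adjusted p = 0.0221 and 0.0181). MYB14 had 2.45, 2.89 and 2.63 CPM in rab8d-2 and 5.54, 9.44 and 12.1 CPM in the double mutant (edgeR adjusted p = 0.021).

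Some enzymes of tryptophan synthesis and of the indole compounds made from it were higher too, and the first 3 named here were picked after their values were seen. AT5G17990, annotated as tryptophan biosynthesis 1, varied little within either genotype: 26.4, 28.3 and 26.3 CPM in rab8d-2 and 53.6, 51.2 and 52.8 CPM in nac103-11 rab8d-2 (1.95-fold, log2 0.96, SE 0.11, edgeR adjusted p = 0.00105). ASB1, a beta subunit of anthranilate synthase, had 45, 69.9 and 49.3 CPM against 133, 102 and 246 CPM (edgeR adjusted p = 0.0199). GGP1 (AT4G30530), a gamma-glutamyl peptidase that acts on glutathione conjugates in glucosinolate and camalexin synthesis, had 86.4, 77.4 and 82.6 CPM against 200, 209 and 570 CPM (log2 1.99, edgeR adjusted p = 0.0111, and log2 1.33 without library 3). All 3 stayed called without library 3. CYP71A12, a cytochrome P450 of camalexin-related indole metabolism, had 1.33, 0.362 and 1.3 CPM against 3.36, 5.16 and 6.25 CPM (edgeR adjusted p = 0.0359, and 0.0808 without library 3). On the glucosinolate list the median log2 fold change of the 17 tested genes was 0.736, and 0.405 without library 3, with 3 genes below 0. None of the 17 was called higher and 1 was called lower, SOT18, a desulfoglucosinolate sulfotransferase. Over all genes 1.29% were called higher and 1.26% lower. SOT18 had 35.9, 16.8 and 34.4 CPM in rab8d-2 and 11.6, 12.9 and 11 CPM in the double mutant (edgeR adjusted p = 0.0452, and 0.118 without library 3). It averaged 52.2 CPM in WT and 12.6 CPM in nac103-11 (log2 -2.05, edgeR adjusted p = 0.0903).

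**Figure D4:**
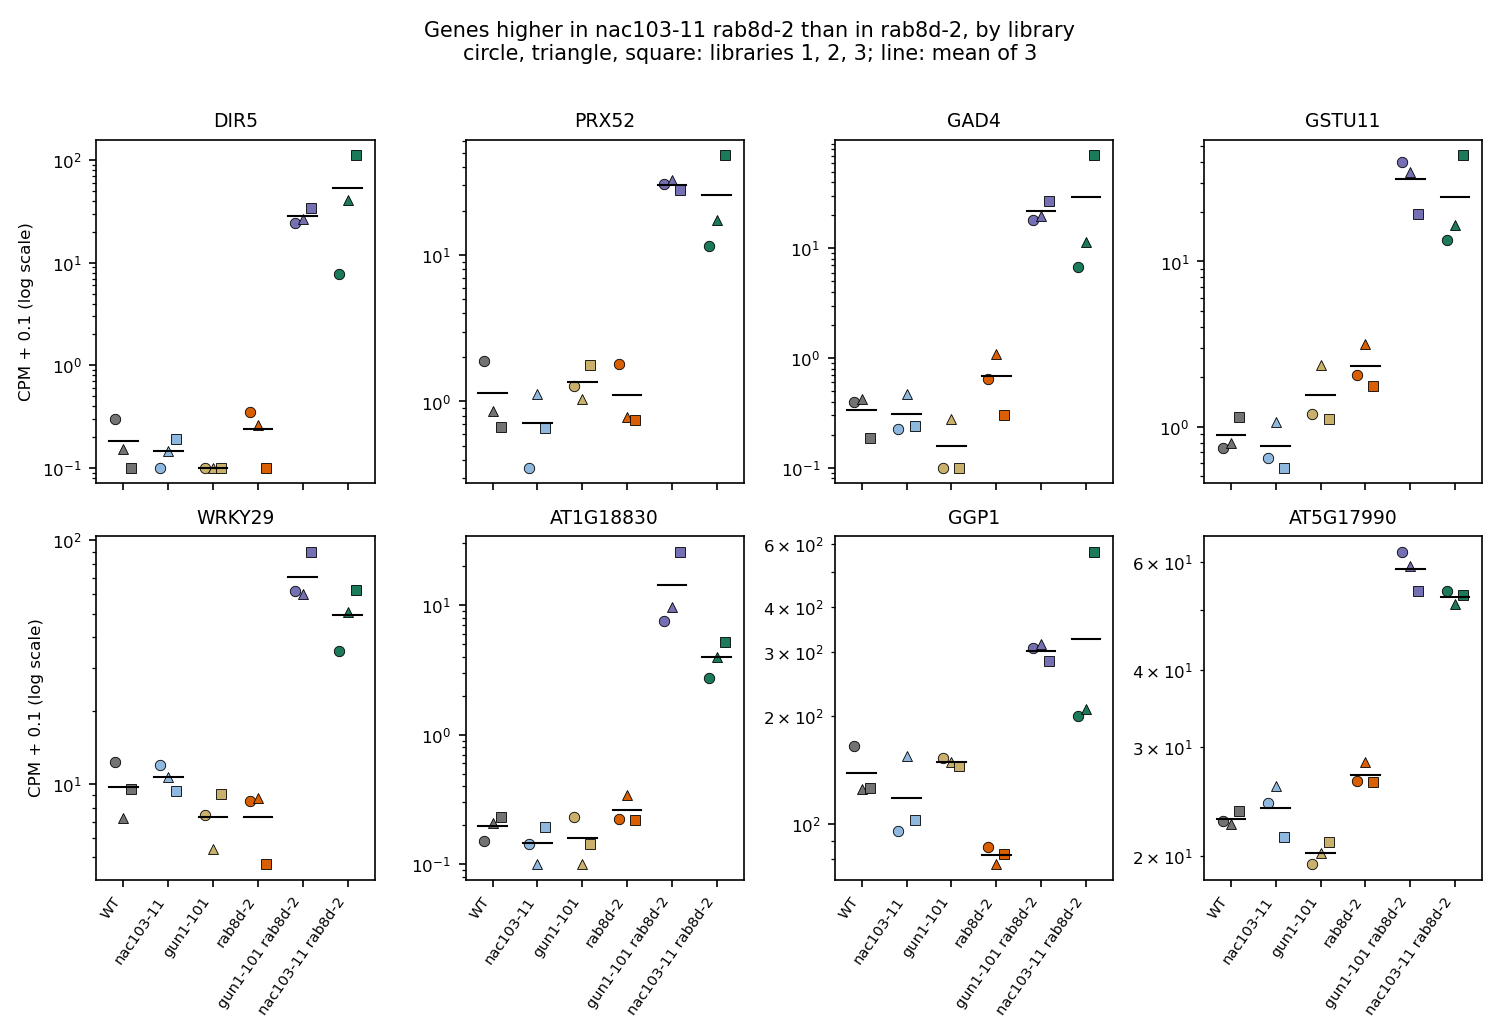
Level of 8 genes called higher in nac103-11 rab8d-2 than in rab8d-2 in each of the 18 libraries (y axis, CPM + 0.1 on a log scale; x axis, genotype; symbols mark libraries 1 to 3 and lines the mean). Library 3 of the double mutant was the highest of its genotype for 7 of these genes and in between for AT5G17990, at 53.6, 51.2 and 52.8 CPM.

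The pathways in which NAC103 is known were then read directly. Over all genes 1.29% were called higher and 1.26% lower. On the unfolded protein response list 1 of 29 tested members rose and 1 fell, and the median log2 fold change was 0.01. The riser was AT1G18830, listed as the SEC31A coat protein of vesicles leaving the endoplasmic reticulum, with 0.124, 0.241 and 0.121 CPM in rab8d-2 and 2.65, 3.85 and 5.06 CPM in the double mutant (log2 4.52, SE 0.64, edgeR adjusted p = 0.00453). It was called without each of the 6 libraries. The faller was BZIP17, a membrane-bound stress sensor, with 62.2, 55.9 and 57.2 CPM against 33.2, 46.6 and 37.9 CPM (log2 -0.57, edgeR adjusted p = 0.0489, and 0.129 without library 3). The chaperones did not pass: BIP1 was at log2 -0.22, BIP2 at -0.21, CNX1 at -0.18, CRT1a at 0.11 and PDIL1-1 at 0.19. BZIP60, the transcription factor upstream of NAC103, had 96.7, 63.3 and 68.2 CPM in rab8d-2 and 92, 57.8 and 164 CPM in the double mutant (log2 0.46, 95% interval -0.13 to 1.05).

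The same shares over all genes, 1.29% higher and 1.26% lower, apply to the DNA damage list. On it 1 of 27 tested members fell, none rose, and the median was -0.01. It was ATR, the replication stress kinase, with 9.95, 13.8 and 14.2 CPM in rab8d-2 and 6.09, 6.27 and 3.62 CPM in nac103-11 rab8d-2 (log2 -1.24, SE 0.25, edgeR adjusted p = 0.0277, and 0.0643 without library 3). SOG1 had 23.2, 26 and 19.1 CPM against 21.7, 24.2 and 24.9 CPM (log2 0.05, 95% interval -0.28 to 0.38). At an unadjusted p below 0.05 the list held 4 members in the main comparison, against 4513 of all 21004 genes tested. The DESeq2 Wald test called 1, against 2096 of all genes. In rab8d-2 against WT, where 12.3% of genes were called, 11 of the 27 rose. Among CDK inhibitors, S phase genes and genes of G2 and M phase, 0 of 11, 0 of 27 and 0 of 30 were called, with medians of -0.22, -0.08 and 0.21. At an unadjusted p below 0.05 there were 4, 1 and 5 of them, against 4513 of all 21004 genes tested. The DESeq2 Wald test called 1, 0 and 0, against 2096 of all genes. The members with the smallest p were ICK1 (log2 -1.42), PCNA2 (0.47) and MAD2 (0.62).

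In the lists of plastid and photosynthesis genes all calls were lower; over all genes 1.26% were called lower. GUN5, the H subunit of magnesium chelatase in chlorophyll synthesis, had 23.6, 8.52 and 22.3 CPM in rab8d-2 and 1.98, 2.06 and 3.87 CPM in the double mutant (log2 -2.80, SE 0.47, edgeR adjusted p = 0.0124). It stayed called without library 3 of the double mutant but not without rab8d-2 library 3 (edgeR adjusted p = 0.0516). It was also lower than in gun1-101 rab8d-2 (log2 -1.82, edgeR adjusted p = 0.0414). It was the 1 of 19 tested members of the plastid signalling and tetrapyrrole list that fell, and none rose. FTSH1, a thylakoid protease, had 20.9, 9 and 19.2 CPM against 6.17, 6.38 and 8.94 CPM (edgeR adjusted p = 0.0359), alone of 24 in the chaperone and protease list. In the plastid translation list, 2 of 12 fell: SCO1, the plastid elongation factor G (log2 -1.18), and EMB1030, an alanyl-tRNA synthetase (log2 -1.62), with edgeR adjusted p-values of 0.0354 and 0.0365. Neither was called without library 3 (0.112 and 0.101). The fall of EMB1030 was from a level raised in rab8d-2. It averaged 4.95 CPM in WT, 108 CPM in rab8d-2 and 35 CPM in the double mutant. In the double mutant it was still above WT (log2 2.82, edgeR adjusted p = 0.000299). SCO1 averaged 37, 29.9 and 13.1 CPM in the same genotypes.

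Of 30 tested photosynthesis genes 29 had a negative fold change, but 1 was called, PSBO2 of photosystem II, with 35.7, 6.19 and 45.7 CPM against 3.84, 1.71 and 6.44 CPM (edgeR adjusted p = 0.0343). Without library 3 PSBO2 was not called (0.0513), with a log2 fold change of -3.38 against -2.89. The summed level of the 30 genes was 1750, 207 and 378 CPM in rab8d-2 and 119, 61.4 and 511 CPM in nac103-11 rab8d-2, so the groups overlapped through library 3 of the double mutant alone. The list's median log2 fold change was -1.63, and -3.15 without that library. These genes also mark green shoot tissue, and the part of such tissue was not tested. The ferredoxins FED_A and FD1, picked after their values were seen, fell and were called with and without library 3. FED_A had 61.5, 22.7 and 41.3 CPM against 9.61, 11.1 and 17.1 CPM (edgeR adjusted p = 0.0243), and FD1 had 82.3, 27.5 and 63.1 CPM against 13.4, 9.4 and 22.1 CPM (edgeR adjusted p = 0.0305).

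The lowest 12 genes also held XERO1 and LTI65, which respond to abscisic acid and drought, BETA-OHASE_1, a carotene hydroxylase, and SKOR, the potassium channel that loads the xylem. XERO1 had 13.3, 1.17 and 7.49 CPM in rab8d-2 and 0.237, 0.317 and 0.562 CPM in the double mutant, and LTI65 had 23.9, 2.45 and 4.49 CPM against 0.316, 1.15 and 1.94 CPM. On the abscisic acid list 2 of 15 fell, against 1.26% of all genes called lower. They were LTI65 and AT5G66400, a dehydrin whose libraries overlapped (138, 1 and 0.81 CPM against 0.119, 0.198 and 1.12 CPM). The log2 fold change of AT5G66400 went from -6.75 to -1.05 without rab8d-2 library 1 (edgeR adjusted p = 0.502) and that of LTI65 from -3.21 to -1.65 (0.178). Without library 3 of the double mutant AT5G66400 was not called either (log2 -8.14, edgeR adjusted p = 0.0898). BETA-OHASE_1 had 8.96, 5.18 and 27.9 CPM against 2.97, 1.86 and 4.31 CPM, and SKOR had 10.3, 6.35 and 26.2 CPM against 4.07, 3.61 and 1.44 CPM. Both were highest in rab8d-2 library 3, whose clock genes were in another state. XERO1, LTI65, BETA-OHASE_1 and SKOR were not called without library 3 of the double mutant, with edgeR adjusted p-values of 0.0523, 0.0749, 0.0764 and 0.141. Their log2 fold changes without it were -4.67, -3.77, -2.51 and -1.87, against -4.33, -3.21, -2.21 and -2.21 with it.

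Cell wall proteins and transport proteins made up further lower genes. Of 27 tested genes named AGP, arabinogalactan proteins of the cell surface, 5 fell and none rose, a family singled out after its values were seen, and 3 were called without library 3. The median of the 27 was log2 -0.19. Over all genes 1.26% were called lower. AGP31 had 1250, 1230 and 1670 CPM in rab8d-2 and 638, 562 and 653 CPM in nac103-11 rab8d-2 (log2 -1.16, edgeR adjusted p = 0.021), and AGP4 had 172, 156 and 219 CPM against 57.7, 56.5 and 82.4 CPM (log2 -1.48, edgeR adjusted p = 0.0282). Of 10 aquaporins, 3 fell, against the same 1.26% of all genes. PIP2A had 804, 370 and 1730 CPM against 211, 170 and 354 CPM, PIP2B 646, 330 and 1050 CPM against 268, 202 and 319 CPM, and TIP2;3 had 43, 33.1 and 152 CPM against 15.6, 10.5 and 28.8 CPM (edgeR adjusted p = 0.0416, 0.0363 and 0.0493). Without library 3 none of these 3 was called (0.0549, 0.0535 and 0.0549), while their log2 fold changes were -2.32, -1.51 and -2.52 against -1.98, -1.36 and -2.06 with it. PHO1, the phosphate exporter into the xylem, had 319, 160 and 372 CPM against 105, 95.8 and 111 CPM (edgeR adjusted p = 0.0181); it was picked after its values were seen.

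Calls in the lists for root cell types are set against the 2.54% called over all genes. None of 10 root hair, 9 suberin, 13 xylem, 8 phloem or 6 root cap genes was called by edgeR. At an unadjusted p below 0.05 these lists held 2, 3, 0, 0 and 2 genes, against 4513 of all 21004 tested. In these lists the DESeq2 Wald test called 1, 1, 0, 0 and 0, against 2096 of all genes. The list medians were log2 -0.33, -0.53, -0.24, -0.10 and -0.505. Without library 3 they were -1.01, -1.12, -1.06, -0.44 and -0.47. Members below 0 numbered 8, 8, 12, 6 and 6, against 10698 of all 21004 genes. Without library 3 none of these lists held a called gene. Their members with the smallest p were RSL2 (log2 -1.29), KCS2 (-1.48), VND7 (-0.73), AT4G39810 (-0.68) and SMB (-0.76). GL2, which specifies the non-hair epidermis, fell from 18.8, 19.9 and 29.2 CPM to 8.23, 11.9 and 6.44 CPM (log2 -1.35, SE 0.24, edgeR adjusted p = 0.0181), as 1 of 3 genes on its list. AT1G62500, entered for that list as CO2, was left out because the symbol did not match. It fell too (log2 -1.80, edgeR adjusted p = 0.00261). SCR, which specifies the endodermis, fell from 61.5, 76.6 and 68.9 CPM to 45.1, 49.2 and 44 CPM (log2 -0.58, edgeR adjusted p = 0.0363, and 0.0958 without library 3), as 1 of 9 on the endodermis list. Of 22 meristem regulators 2 rose and 2 fell, and none was called without library 3. They included PSK5, a precursor of the growth peptide phytosulfokine, with 7.63, 4.42 and 9.72 CPM against 16.7, 24.5 and 85.2 CPM, and JKD, a partner of SCR, with 43.9, 58.6 and 51.5 CPM against 32.1, 36.2 and 21.4 CPM (edgeR adjusted p = 0.0277 and 0.0457, and 0.056 and 0.12 without library 3). The log2 fold change of PSK5 went from 2.53 to 1.53 without library 3. AT5G61890, entered for the meristem list as ERF114, was left out because the symbol did not match. It rose (log2 3.44) and was not called without library 3.

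The same share applies to the hormone, nutrient and stress lists. Of 27 auxin genes 1 fell, the efflux carrier PIN3, from 60.6, 65.3 and 60.4 CPM to 38.5, 42.6 and 34.3 CPM (log2 -0.69, edgeR adjusted p = 0.0452, and 0.12 without library 3). Of 11 mitochondrial dysfunction genes 2 rose, NDB4, an alternative NADH dehydrogenase, with 5.18, 6.99 and 6.11 CPM against 14, 9.99 and 19.1 CPM, and AOX1D, an alternative oxidase, with 0.124, 0.121 and 0.0405 CPM against 0.396, 1.51 and 2.75 CPM (edgeR adjusted p = 0.0313 and 0.0376). Neither was called without library 3, where AOX1D went from log2 3.93 to 3.28. On the jasmonate list 1 of 15 rose, AOC1, and on the defence list 1 of 11, CYP71A12. None of 14 heat shock, 20 cytokinin, 16 iron, 12 phosphate, 10 nitrate or 15 clock genes was called by edgeR. The heat shock count leaves out HSP22, which is the called gene ATHSP22.0, because its symbol did not match. At an unadjusted p below 0.05 these 6 lists held 1, 4, 2, 4, 2 and 3 genes, against 4513 of all 21004 tested. In these lists the DESeq2 Wald test called 0, 1, 1, 2, 0 and 1, against 2096 of all genes. The list medians were log2 -0.87, -0.03, -0.01, -0.12, 0.135 and -0.12. Without library 3 of the double mutant they were -0.74, -0.11, -0.16, -0.64, -0.34 and 0.25, and none of these lists held a called gene. Their members with the smallest p were HSP18.2 (log2 1.31), CRF2 (-0.60), AT3G13610 (1.64), RNS1 (2.41), LBD38 (0.80) and RVE8 (-3.15). RVE8, a morning clock gene, had 4.11, 3.5 and 33.2 CPM in rab8d-2 and 1.82, 1.71 and 1 CPM in the double mutant.

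**Figure D5:**
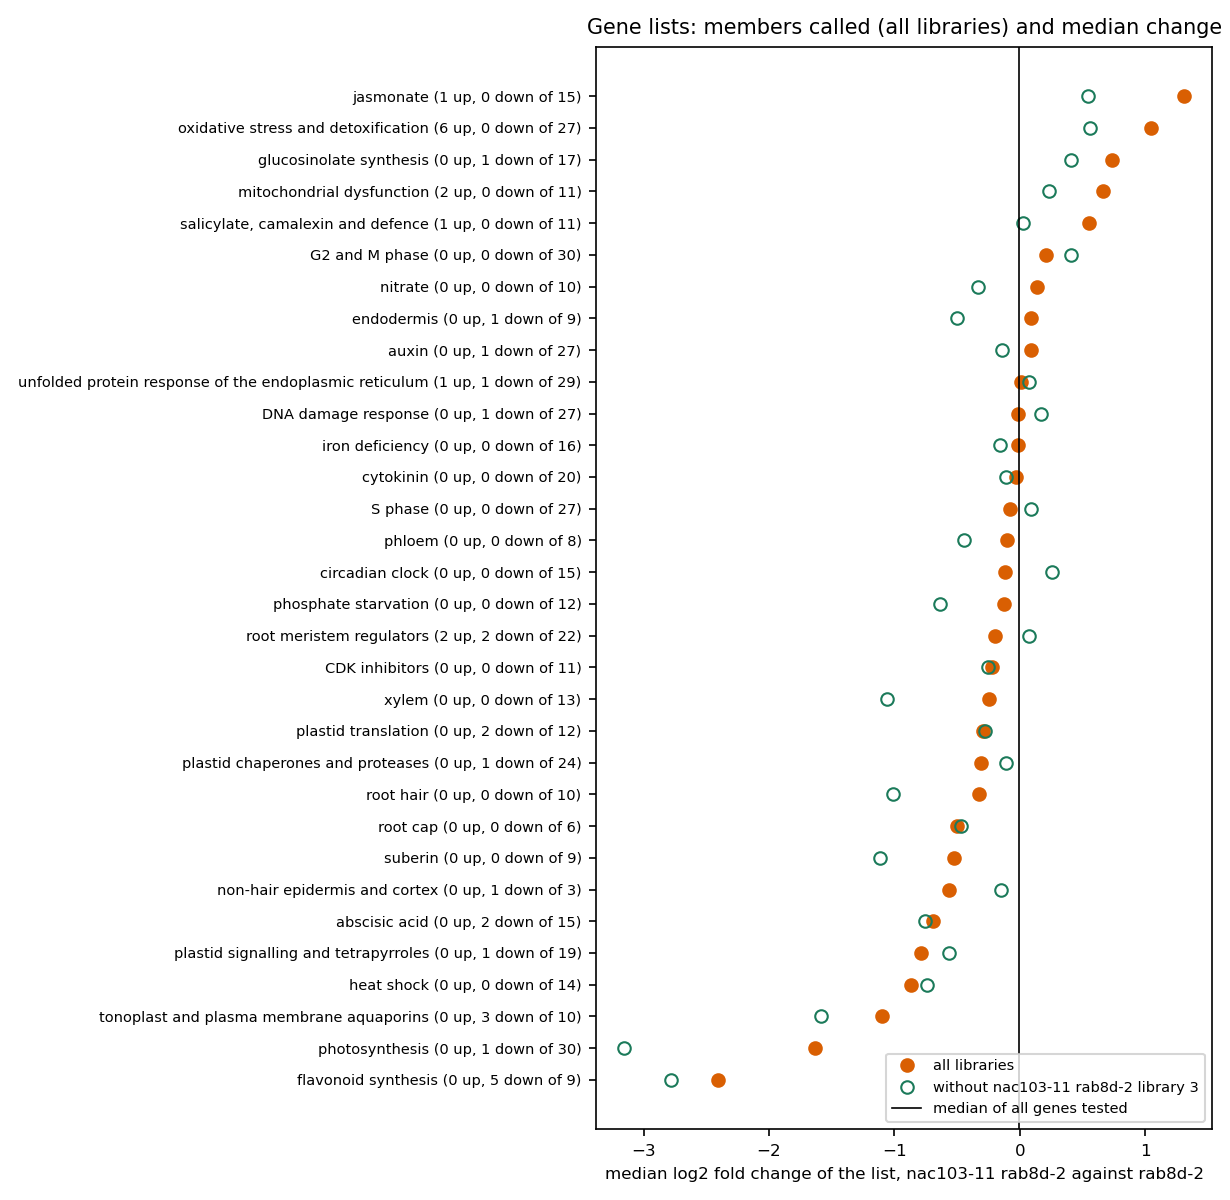
Median log2 fold change of each of the 32 gene lists in nac103-11 rab8d-2 against rab8d-2 (x axis; filled, all libraries; open, without library 3 of the double mutant), with the members called higher and lower of those tested beside each name. With all libraries flavonoid synthesis was lowest at -2.41; without library 3 photosynthesis was lowest at -3.15, with flavonoid synthesis at -2.78, and the oxidative stress list moved from 1.04 to 0.56 without library 3.

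The effect of nac103-11 without rab8d-2 was read in nac103-11 against WT, where 2 genes were called (0.00952%) and 1363 had an unadjusted p below 0.05. They were AT1G75945, an uncharacterized protein that was higher in nac103-11 (log2 6.98, edgeR adjusted p = 3.37e-05), and AT4G29200, a beta-galactosidase related protein, both named after their values were seen. AT4G29200 had 104, 34.5 and 59.6 CPM in WT and no count in any nac103-11 library (edgeR adjusted p = 0.000138), and it was at or below 0.456 CPM in every rab8d-2 and nac103-11 rab8d-2 library. The interaction of nac103-11 and rab8d-2 also gave 2 calls (0.00952%), with 3340 genes at an unadjusted p below 0.05, so for nearly all of the 534 genes a dependence on rab8d-2 was not established. The riser WRKY29 had an interaction of log2 2.64 and PRX52 of log2 5.41, each with an edgeR adjusted p of 0.056. MRD1 passed that test. MRD1 (AT1G53480) had 0.249, 0.201 and 0.729 CPM in rab8d-2 and 37.9, 53.3 and 69 CPM in nac103-11 rab8d-2 (log2 7.07, SE 0.70, edgeR adjusted p = 0.000333). It had 84.5, 67.7 and 40.6 CPM in WT and 47.9, 55.6 and 57.5 CPM in nac103-11, but a mean of 0.831 CPM in gun1-101 and 0.0391 CPM in gun1-101 rab8d-2. QQS, a species-specific gene linked to starch content, had 0.124, 0.322 and 0.688 CPM in rab8d-2 and 19.8, 16 and 6.69 CPM in the double mutant (edgeR adjusted p = 0.023). It too was low in gun1-101 and gun1-101 rab8d-2, at means of 0.176 and 0.309 CPM. WT and both genotypes carrying nac103-11 were on the high side for MRD1 in every library, and for QQS in every library but WT library 2, at 0.592 CPM.

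A pair of loci of unknown role, picked after their values were seen, had their highest levels in rab8d-2. AT5G55270, a DUF295 protein, had 12.8, 20 and 11.5 CPM in rab8d-2 against 0.751, 0.317 and 0.75 CPM when nac103-11 was added, with 0.199, 0.269 and 0.348 CPM in WT (edgeR adjusted p = 0.000333). AT4G05380, an ATPase-like protein, had 6.97, 7.03 and 7.13 CPM against 1.07, 0.833 and 0.687 CPM (edgeR adjusted p = 0.000333). Each averaged about 2 CPM in gun1-101 rab8d-2, at 2.1 and 1.95 CPM, above the double mutant with nac103-11 (edgeR adjusted p = 0.0414 for both).

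The double mutants were then set against each other, which does not involve the rab8d-2 libraries. Between nac103-11 rab8d-2 and gun1-101 rab8d-2 edgeR called 1036 genes (4.93%), 765 higher and 271 lower in the former. Without library 3 of nac103-11 rab8d-2 the count was 21, and it was 11 and 12 without libraries 1 and 2 of gun1-101 rab8d-2, which were closer to each other than any other pair within a genotype. That pair's variance over counting noise was 2.14, against 12.1 to 182 in the other pairs of a genotype. They differed by more than counting noise, but repeated preparations of the same RNA can do so too. Whether they are separate biological samples was therefore not settled. They were kept as separate libraries because the labels call them biological replicates, and they entered the spread estimate shared by all 18 libraries. The flavonoid genes and most of the named risers were not called there. DIR5 averaged 52.9 ± 52.6 CPM in nac103-11 rab8d-2 and 28.3 ± 5.37 CPM in gun1-101 rab8d-2 (SD, n = 3 each), a difference of log2 0.90 with a 95% interval of -0.63 to 2.43. WRKY29 averaged 49.5 ± 13.8 and 70.4 ± 16.7 CPM (log2 -0.51, 95% interval -1.12 to 0.10). AT1G18830 was lower in nac103-11 rab8d-2, at 3.85 ± 1.21 against 14.2 ± 9.92 CPM (log2 -1.88, edgeR adjusted p = 0.0477). Against WT, nac103-11 rab8d-2 had 6137 genes called (29.2%) and rab8d-2 had 2585 (12.3%).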

How the data were processed

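RNA sequencing of 18 root tip libraries, 3 from each of 6 genotypes, was deposited as a table of 25177 protein-coding genes. Per the submitters' processing notes the authors used RSEM 1.3.1 and the TAIR10 build. The deposited expected counts per gene are not normalized; 19.6% of them were not whole (tolerance 1e-06), and all were rounded. The deposited TPM values, which sum per library to 67.1% to 79.5% of the TPM total, were used in 1 alternative only, and the 12 columns of genotype means were not used. Strandedness is not given in the sources used here.

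Genes passing filterByExpr (21004) were analysed with edgeR 4.0.16 in R 4.3.3. Library sizes were corrected by TMM (factors 0.706 to 1.17), genotype was the only term of the robust quasi-likelihood fit over the 18 libraries, and glmQLFTest gave each contrast, called at 0.05 after Benjamini-Hochberg adjustment. The SE is the absolute log2 fold change over the square root of F. On counts simulated for nac103-11 rab8d-2 against rab8d-2 over 21004 genes, 42 of 50 genes changed 4-fold and 7 of 50 changed 2-fold were recovered, with 5 false calls. Each gene was drawn independently around the mean of its genotype, so no simulated library stood apart or differed in clock state. The 5 false calls therefore do not give the number to be expected among the real calls. DESeq2 1.42.0 and limma 3.58.1 (log2(TPM + 0.5)) were alternatives.

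The comparison and the 32 gene lists (534 of 558 entries matched by locus and symbol) were chosen with earlier results of these data known. The list counts leave out 23 entries whose symbol did not match the locus, some of them called genes, and 1 entry that was not in the table. Named genes were the mutated genes, the 12 highest and 12 lowest fold changes of called genes that have a symbol, a mean of 5 CPM or more in 1 of both genotypes and libraries that do not overlap, and for each list its called members with the smallest p, at most 3, or failing any its top member by p. Genes outside this rule are marked as picked after their values were seen. Sequences and positions are from RefSeq TAIR10.1, matched by gene ID.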

Additional observations from a re-analysis of the deposited data

Results flagged for a closer look

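MRD1 and AT1G75945 are given here because the nac103-11 effect differed between the rab8d-2 and WT backgrounds by the interaction test. For MRD1 the effect in rab8d-2 minus the effect in WT was log2 7.33 (SE 0.85, edgeR adjusted p = 0.00354). For AT1G75945, an uncharacterized protein picked after its values were seen, it was log2 -6.72 (SE 0.65, edgeR adjusted p = 0.000683): the gene was higher in nac103-11 than in WT, with 16.4, 18.8 and 16.5 CPM against 0.199, 0.215 and 0 CPM, while rab8d-2 had 25.6, 38.3 and 22.2 CPM and nac103-11 rab8d-2 had 27.5, 29.8 and 45.2 CPM. MRD1 was near 0 in rab8d-2, gun1-101 and gun1-101 rab8d-2 and high in the other genotypes; AT1G75945 was near 0 in WT and gun1-101 and high in the other genotypes. Each pattern follows genotype in all 3 libraries. Whether a difference between the lines other than the named mutations contributes was not tested.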

How the results depend on the processing

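For nac103-11 rab8d-2 against rab8d-2, the 534 calls became 2096 by the DESeq2 Wald test, 122 with the replicate number as a block and 2 in a fit of the 6 libraries alone; leaving out 1 library gave 45 to 912. DESeq2 size factors (516), no low count filter (403) and limma on TPM (728, 329 higher and 399 lower) stayed within 1.5 times, as did a fit without nac103-11 rab8d-2 replicate 3 and WT replicate 3 together (437), an alternative chosen after seeing the data that split 155 higher and 282 lower. Without nac103-11 rab8d-2 replicate 1 the split was 686 higher and 226 lower, and without rab8d-2 replicate 3 it was 18 and 27. On TPM the median over all genes was log2 -0.18, against -0.01. For nac103-11 against WT, the 2 calls became 58 (Wald), 4 (TPM), 0 (the 6 libraries alone) and 1219 (both libraries left out), with 2 to 3 when 1 library was left out. For the interaction, the 2 calls became 548 (Wald), 67 (TPM) and 8 (both libraries left out), with 2 to 72 when 1 library was left out. For nac103-11 rab8d-2 against gun1-101 rab8d-2, the 1036 calls became 2611 (Wald), 28 (replicate block), 2 (the 6 libraries alone) and 446 (both libraries left out), with 11 to 1668 when 1 library was left out. The cause of these shifts was not tested, also where the fits of 6 held fewer libraries. Replicate numbers did not pair the libraries: the deviations of same-numbered libraries in the main comparison correlated at -0.40, 0.32 and -0.21, and 1 of 3 libraries correlated best with its own number. No called gene named in the text changed sign under the alternatives that tested it; the fit of 6 libraries did not test GSTU3. At this depth and spread, simulated 2-fold changes were mostly missed.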
